A study of Mus musculus with 42 samples.

Results

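The RNAs that stay bound to Tnrc6a when Trim71 is missing were measured in 12 of the 42 libraries of a mouse embryonic stem cell study. These are input and bead-bound (IP) RNA, 3 libraries each, of cells labelled as carrying HA-AVI-Tnrc6a with Trim71-/- (Trim71KO-labelled cells) and of untagged control cells, all from experiment 1. RNA immunoprecipitation with sequencing (RIP-seq) recovers the RNA that travels with a tagged protein: lysates were incubated with anti-HA beads, and an untagged cell shows what the beads pick up by themselves. The quantity described, called remaining association here, is how far IP exceeds input on the log2 scale in Trim71KO-labelled cells minus the same difference in untagged cells. All groups share the parental 129S6/SvEvTac line with the GFP_5xT71BS reporter and a stable FLAG-Cas9::T2A::Blasticidin insertion. Tagged cells that keep Trim71 (HA-AVI-Tnrc6a, 6 libraries of the same experiment) serve for comparison, as do the same groups plus Ago2-/- cells in the 24 libraries of experiment 2. The labels do not say whether each genotype is 1 clone. Dishes were grown in triplicate, so p-values measure the spread between dishes of one line.

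GW182 proteins, called Tnrc6 in mammals, bind Argonaute proteins that carry a microRNA and recruit the CCR4-NOT and PAN2-PAN3 deadenylases, which shorten the poly(A) tail of the target and silence it. A microRNA finds its target mainly through its seed, bases 2 to 8, which pair with the 3′ untranslated region. Trim71, also known as Lin41, is a TRIM-NHL protein of stem cells that binds RNA hairpins and represses mRNAs, and the study asks how its silencing and that of microRNAs meet on Tnrc6. In embryonic stem cells the miR-290 and miR-302 clusters and the miR-17 family are the best known abundant microRNAs, while let-7 rises on differentiation and represses Trim71 itself.

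The microRNA families whose reported targets are followed below are shown here because they define those target lists. Sequences are mature microRNAs from RefSeq (GRCm38.p6), 5′ to 3′, with the seed in capitals.
miR-291a-3p: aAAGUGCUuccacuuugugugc
miR-294-3p: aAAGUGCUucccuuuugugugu
miR-295-3p: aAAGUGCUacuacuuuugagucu
miR-302b-3p: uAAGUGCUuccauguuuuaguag
miR-17-5p: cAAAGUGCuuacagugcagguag
miR-20a-5p: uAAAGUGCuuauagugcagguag
let-7g-5p: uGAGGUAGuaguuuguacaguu
let-7i-5p: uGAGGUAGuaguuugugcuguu
The first 3 lie together on the plus strand at chr7:3218968-3218989, chr7:3220691-3220712 and chr7:3220815-3220837, and share their seed with miR-302b-3p (chr3:127545275-127545297, plus strand). Of 1679 mature microRNA names in the table, 5 carried that seed. The seed of miR-17-5p and miR-20a-5p (chr14:115043684-115043706 and chr14:115044183-115044205, plus strand), found in 7 names, holds the first 6 bases of the miR-290 seed shifted by 1 position. The let-7 seed was found in 11 names and has neither run of bases (let-7g-5p at chr9:106178846-106178867, plus strand; let-7i-5p at chr10:122985698-122985719, minus strand).

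The 12 libraries held 12587257 to 23657840 counts. Trim71KO IP replicate 1 was the shallowest and stood farthest from its replicates, with a chi-square per gene of 18.8 and 46.1 against them. Untagged IP replicate 2 stood farthest in its group, and both are left out where a value is given without both far IP libraries. Trim71 RNA (chr9:114511268-114564369 in GRCm38.p6) was present in the Trim71KO-labelled inputs, at 284, 283 and 278 CPM (counts scaled to a common library size with TMM factors) against 215, 227 and 231 CPM in untagged inputs, so the RNA level does not check that label, and Trim71KO input and IP below mean the libraries so labelled. Tnrc6a took 1.26% to 2.07% of all counts in Trim71KO IP and 0.00781% to 0.00829% in untagged IP. All 10 embryonic stem cell markers were in the table, with summed input levels of 7363 to 7557 CPM in untagged and 8776 to 9005 CPM in Trim71KO-labelled cells. Of the 10, 7 were called higher in Trim71KO-labelled inputs and 0 lower, where 11.0% of all genes were called higher. The summed level of 8 primitive endoderm markers was 80.1 to 82.9 CPM in untagged inputs and 13.3 to 16.0 CPM in Trim71KO-labelled inputs, and 7 of the 8 were called lower. Its part in the results below was not tested, and in bulk RNA fewer cells of a type and less RNA per cell cannot be told apart. Of 7 fibroblast markers 2 were in the table, with sums of 20.4 to 22.7 CPM in untagged and 58.0 to 61.8 CPM in Trim71KO-labelled inputs. Of these Thy1 was called higher, at means of 18.7 and 55.8 CPM (1.58, edgeR adjusted p 1.03e-09), and Col1a2, Col3a1, Postn, Lum and Dcn were not in the table. Of 7 trophoblast markers 4 were in the table (48.6 to 49.3 against 51.6 to 57.7 CPM; 1 called higher and 1 lower), and all 5 neural markers were (103 to 105 against 99.0 to 112 CPM; 1 higher and 1 lower). Their part in the results was not tested either.

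Remaining association was called for 10310 of 18772 genes tested (54.9%; edgeR adjusted p under 0.05), 4810 of them higher (25.6%) and 5500 lower (29.3%) in Trim71KO-labelled than in untagged cells. Which direction had more calls depended on the scaling and the libraries. Library size alone gave 5432 higher and 4232 lower, RLE factors 5063 and 5051, and only the groups compared 5373 and 4948. All 12 fits without 1 library had more higher than lower calls, with 4966 to 5496 higher and 4060 to 4684 lower. RNAs called higher had a median of 1.35 on the log2 scale, and 1325 of them exceeded 4-fold and 435 exceeded 8-fold. At 2-fold or more 5140 genes were called (27.4%), 3137 higher (16.7%) and 2003 lower (10.7%). In 4793 of the 4810 the IP itself exceeded the input in Trim71KO-labelled cells, and 4503 were also called higher in IP level. There 68.9% of all genes were called, 31.9% higher and 37.1% lower (5979 and 6963 genes), which became 6629 and 5843 with library size alone, with more higher than lower calls in all 6 fits without 1 IP library. In input RNA level 576 of the 4810 were called higher and 577 lower, where 20.4% of all genes were called (11.0% higher and 9.37% lower). The median over all genes was -0.15 and moved to -0.01 with library size alone, so small differences are read against that shift.

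**Figure D1:**
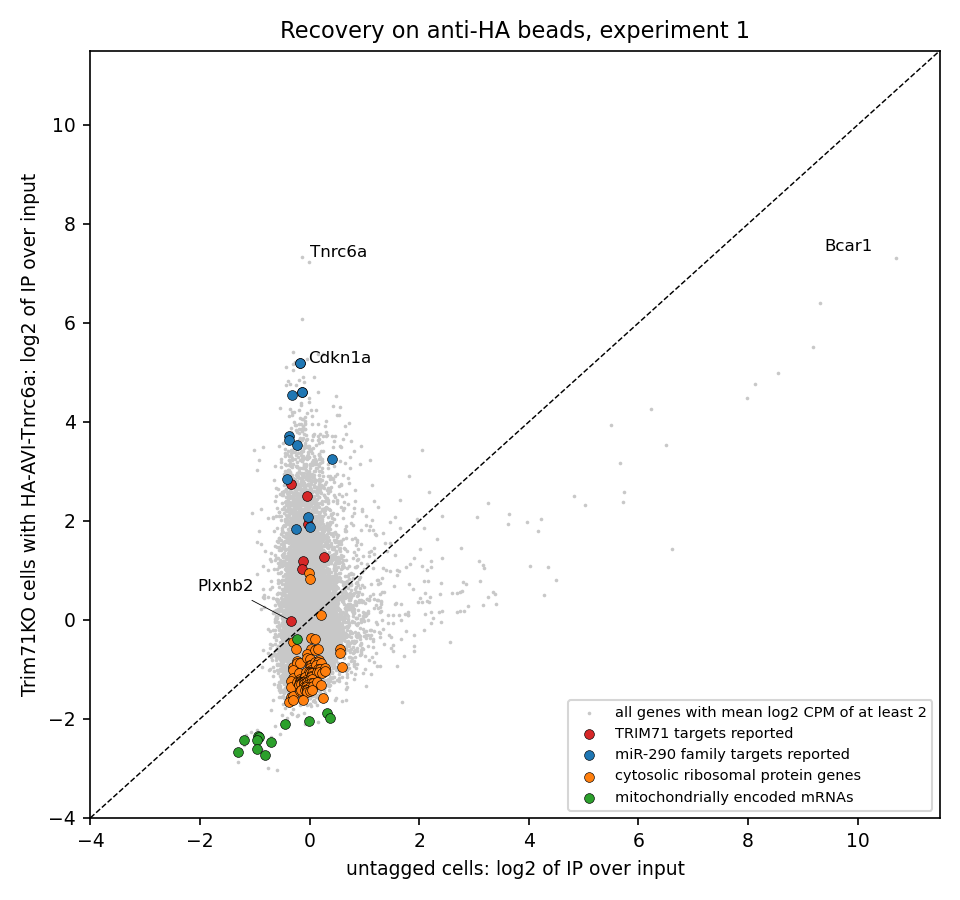
Each point is a gene with a mean of at least 2 on the log2 CPM scale in experiment 1, placed by its IP over input (log2) in untagged cells on the horizontal and in Trim71KO-labelled cells on the vertical axis; coloured points are 4 gene lists and the dashed line marks equality. miR-290 family targets sit far above the line, Plxnb2 close to it, ribosomal protein and mitochondrial mRNAs below it, and Bcar1 at the far right as a bead-bound RNA of untagged cells.

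The RNA with the largest remaining association among named genes was that of Tnrc6a itself (chr7:123031101-123195296 in GRCm38.p6), the gene that carries the tag. It stood at 13373, 17593 and 21758 CPM in the 3 Trim71KO IP libraries and 106, 112 and 108 CPM in their inputs. Untagged IP held 89.6, 94.0 and 93.7 CPM and untagged input 105, 97.4 and 104 CPM. The IP libraries of Trim71KO-labelled cells lay far above all others of the comparison, and remaining association was 7.48 (SE 0.27, edgeR adjusted p 3.13e-16).

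The other 11 leading RNAs lay between 5.13 and 6.21 on the log2 scale and were chosen for that size, so their experiment 1 values are a description. Zfp768, a zinc finger gene, went from 4.24, 3.74 and 3.23 CPM in Trim71KO input to 279, 249 and 228 in IP, while untagged cells had 6.10, 5.50 and 5.81 in input and 4.73, 5.99 and 5.16 in IP. Gdf11, a ligand of the TGF-beta superfamily, went from 2.38, 2.64 and 2.39 to 91.3, 78.4 and 76.4 CPM. In untagged cells its IP, at 2.15, 3.17 and 1.94 CPM, overlapped its input at 3.33, 2.45 and 3.12. Zbtb7a, a transcriptional repressor, reached 2930.0, 2674 and 2546 CPM from 62.3, 77.6 and 71.5, with 42.0, 44.8 and 42.9 in untagged IP and 47.0, 42.9 and 44.1 in untagged input. For all 3 genes the Trim71KO IP libraries were apart from every other library of the comparison. The 12 also hold 9530068E07Rik (5.71), Gnb5 (5.48), a G protein beta subunit, Cdkn1a (5.37), F3 (5.18), the coagulation tissue factor, Plagl2 (5.13) and Rfx4 (5.13), both transcription factors. Tagap1 (5.49) and Tagap (5.22) are related genes whose reads may be shared, so their values are uncertain. The libraries of experiment 2, which had no part in that choice, called 12 of 12 higher as well, at 3.99 to 7.50, where 23.0% of genes were called higher. Among rows with no symbol in the table, ENSMUSG00000110230 stood at 7.25 (SE 0.72) and ENSMUSG00000117050 at 5.54 (SE 0.23).

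**Figure D2:**
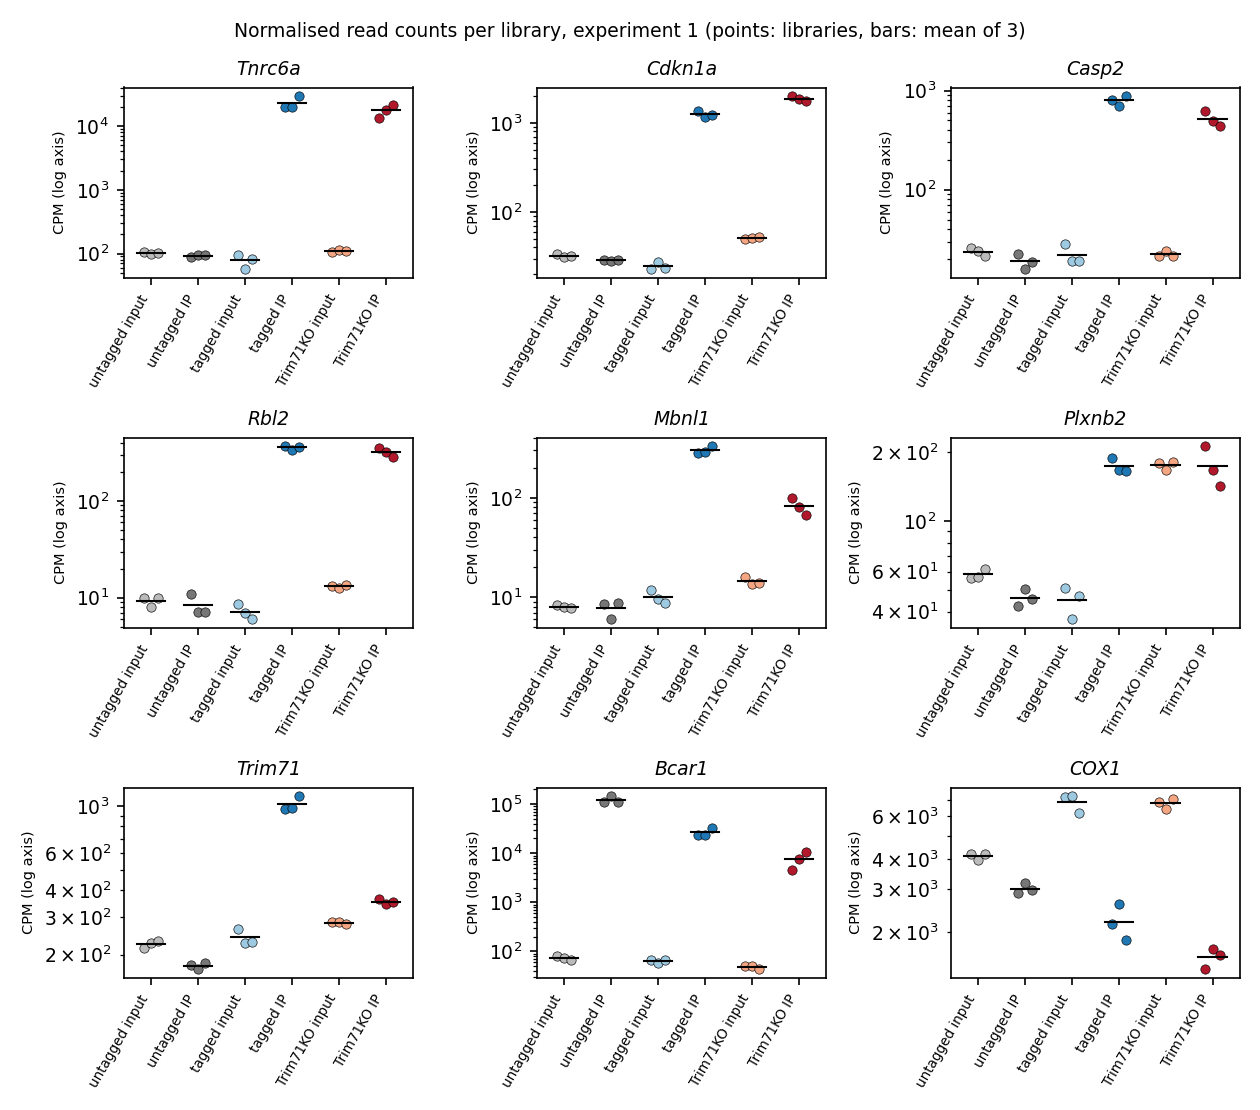
CPM (log axis, scaled by TMM) of 9 RNAs in the 18 libraries of experiment 1, with points for libraries and bars for the mean of 3. Tnrc6a, Cdkn1a, Casp2 and Rbl2 stay high in Trim71KO IP, Mbnl1 sits between background and tagged cells, Plxnb2 IP overlaps its input in Trim71KO-labelled cells, Bcar1 is highest in untagged IP, and the mitochondrial COX1 is below input in each IP.

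Of 11 reported targets of the miR-290 family, the family of the first 3 sequences above, 10 had a remaining association measured above the floor, and Dkk1 is limited by its input as described below. The 11 were each called higher, against 25.6% of all genes, with a median of 3.77 (3.26 with Dkk1 at its floor), where all genes had -0.15. In tagged cells, which share the untagged reference, the median of the same list was 3.99. Each of the 11 calls held under all alternative settings run and with each of 12 libraries left out in turn.

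Casp2, a caspase that promotes cell death, stood at 629, 496 and 440.3 CPM in Trim71KO IP and 21.4, 24 and 21.7 CPM in input. Untagged IP (22.4, 15.9 and 18.8) and input (25.7, 23.9 and 21.2) overlapped. All Trim71KO IP libraries were thus above 400 CPM and all 9 others of the comparison below 26, and remaining association was 4.86 (SE 0.22, edgeR adjusted p 1.07e-14) beside 5.49 in tagged cells. Ei24, a p53-induced gene, had 1626, 1363 and 1329 CPM in Trim71KO IP against 112, 118 and 119.7 in input, and 97.1, 90.4 and 107 against 129, 124 and 128 in untagged cells. Its groups did not overlap on the beads, and the difference was 4.00 (SE 0.16, edgeR adjusted p 1.11e-15). Lats2, a kinase of the Hippo pathway, had 101, 71.5 and 53.9 CPM in IP and 7.6, 6.92 and 5.14 in input of Trim71KO-labelled cells, with 4.07, 4.79 and 5.43 and 5.69, 5.45 and 5.76 in untagged cells. Replicate 1 was the highest and replicate 3 the lowest in Trim71KO IP, and all 3 lay far above the other groups (3.77, SE 0.29, edgeR adjusted p 1.03e-10).

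Wee1, which holds back entry into mitosis, reached 622, 515 and 429 CPM in Trim71KO IP from 52.3, 58.5 and 54.4 (2.84, SE 0.16). Tgfbr2, the type II TGF-beta receptor, was scarce in input at 1.92, 3.48 and 1.33 CPM and reached 20.4, 16.3 and 11.9 (3.26, SE 0.47), the least precise of the set apart from Dkk1. The GTPase gene Rhoc (2.11), the ubiquitin ligase subunit Fbxl5 (2.09) and the kinase Akt1 (1.87) had smaller differences. Dkk1, a secreted Wnt inhibitor, held 0, 0.0440 and 0 CPM in Trim71KO input, which is under the floor of 3 counts a library, and 0.420, 0.260 and 0.234 CPM in IP. Untagged IP (0.370, 1.41 and 0.536) overlapped Trim71KO IP and untagged input (0.518, 1.06 and 1.51) was above Trim71KO input, so its log2 difference, at least 1.50 with the floor in place of the input, rests on the input. Against tagged cells 703 genes were called (3.74%), 652 lower (3.47%) and 51 higher (0.272%), which became 408 and 133 with library size alone. Among the 11 the Trim71KO value was called lower for Cdkn1a and Rbl2 only. For Casp2 that difference was -0.63 (SE 0.21, edgeR adjusted p 0.113), for Ei24 -0.40 (SE 0.15, edgeR adjusted p 0.179) and for Rhoc 0.24 (SE 0.15, edgeR adjusted p 0.482). These miss the threshold and do not show equal association. Casp2 was called lower with the replicate number as a block and in 2 of 12 fits without 1 library, and Ei24 in 1 of 12.

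Of 6 rows of the miR-290 cluster itself 3 were called lower and 0 higher. In experiment 2, 0 of the 6 were called lower and 0 higher, with a median of -0.36. Mir294 stood at 0.252, 1.10 and 0.702 CPM in Trim71KO IP and 1.51, 1.37 and 2.30 in input, and at 1.41, 2.11 and 2.55 and 0.444, 0.370 and 0.802 CPM in untagged cells (-3.19, SE 0.56, edgeR adjusted p 4.48e-05). Trim71KO IP was below input there and untagged IP above it. These rows hold few reads of the hairpins or their host transcript, and mature microRNAs were not measured. Mir22hg, the host of another microRNA, was lower too (-1.57, SE 0.38).

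Reported targets of the miR-17 family also mostly had a remaining association. Of 17 tested, 15 were called higher (88.2%) and 1 lower (5.88%), beside 25.6% and 29.3% of all genes. The list median was 2.05 against 2.29 in tagged cells. Against tagged cells 7 of the 17 were called lower and 0 higher, where 3.47% of genes were called lower. Cdkn1a and Rbl2 belong to this list too. E2f2 (4.48, SE 0.15) and E2f1 (2.73, SE 0.15), transcription factors of the cell cycle, Zbtb4 (4.02, SE 0.24) and Bcl2l11 were among the highest. Bcl2l11, the pro-apoptotic gene Bim, stood at 283, 258 and 251 CPM in Trim71KO IP and 12.8, 14.0 and 13.4 in input, against 33.7, 37.0 and 31.2 and 26.1, 23.0 and 20.0 in untagged cells. Its Trim71KO IP libraries were all over 6 times as high as any other library of the comparison (3.75, SE 0.16, edgeR adjusted p 3e-15). Bmpr2 was not called (0.13, SE 0.20) and had 1.04 in tagged cells, and Hif1a was lower (-0.40). The Hif1a call was lost with library size alone and in 10 of 12 fits that left out a library.

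Reported let-7 targets had a smaller median of 0.85 (1.13 in tagged cells). Of 18 tested, 14 were called higher (77.8%) and 3 lower (16.7%), beside 25.6% and 29.3% of all genes. Mycn, a growth regulator, had 719, 594 and 538 CPM in Trim71KO IP and 106, 98.7 and 93.5 in input, and 133, 144 and 133 against 109.8, 106 and 106 in untagged cells, which do not overlap on the beads (2.29, SE 0.15, edgeR adjusted p 5.97e-12). Nr6a1 (2.16), Ccnd1 (2.05), Lin28a (2.00), Igf2bp1 (1.86) and Ccnd2 (1.84) were called higher as well. Myc stood below untagged cells, with 33.8, 28.8 and 25.7 CPM in Trim71KO IP, 37.4, 34.9 and 31.1 in input, 58.1, 60.4 and 52.3 in untagged IP and 37.9, 40.2 and 33.3 in untagged input (-0.84, SE 0.16, edgeR adjusted p 0.000149). Trim71KO IP overlapped its input, while untagged IP was above every other library of the comparison.

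Reported targets of Trim71 mostly had a remaining association, and several a smaller one than in tagged cells. Of 9 tested, 7 were called higher than untagged cells (77.8%, beside 25.6% of all genes) and 0 lower. The median was 1.97 over the 9, and 1.93 without Hoxa5, whose untagged groups are at the floor. In tagged cells the median was 4.01 with Hoxa5 included, and it was not computed without Hoxa5. The median of the direct differences from tagged cells was -0.92, a smaller difference than between the medians. Against tagged cells 6 of the 9 were called lower, where 3.47% of genes were. Cdkn1a and Rbl2 are also in the miR-290 and miR-17 lists, and Rbl1 in the latter.

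Cdkn1a (chr17:29090979-29100722 in GRCm38.p6), the p21 inhibitor of cyclin-dependent kinases, stood at 1991, 1834 and 1770.2 CPM in Trim71KO IP and 50.0, 50.7 and 51.8 in input. Untagged IP had 28.7, 28.0 and 29.1 CPM and untagged input 33.9, 31.2 and 31.8. Trim71KO IP was above tagged IP (1369, 1175 and 1208 CPM), with the tagged input at 22.9, 27.6 and 23.5 CPM. Remaining association was 5.37 (SE 0.14, edgeR adjusted p 2.97e-18), and the difference from tagged cells was -0.47 (SE 0.13, edgeR adjusted p 0.0474). That last call was lost under 4 alternative settings and in 9 of 12 fits without 1 library.

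Rbl2, a relative of the retinoblastoma protein, had 350.5, 321 and 285 CPM in Trim71KO IP against 13.1, 12.7 and 13.5 in input, and 10.9, 7.19 and 7.04 against 9.84, 8.0 and 9.87 in untagged cells. Its IP groups lay far apart (4.75, SE 0.20, edgeR adjusted p 3e-15), while Trim71KO IP overlapped tagged IP (369, 339 and 365 CPM). Inhbb, the activin subunit beta B, had 3599.8, 2837 and 2367 CPM in Trim71KO IP, 434, 439 and 443 in input, 190.2, 198 and 193 in untagged IP and 242, 247 and 251 in untagged input. Here the input was higher in each Trim71KO library than in any untagged one, and the difference of ratios was 3.09 (SE 0.16, edgeR adjusted p 1.32e-13). Rbl1 had a smaller value (1.30, SE 0.17). Egr1, an immediate-early transcription factor, stood at 77.4, 66.0 and 72.7 CPM in Trim71KO IP and 72.2, 72.8 and 95.1 in untagged IP, with 36.8, 31.5 and 38.2 and 79.4, 82.2 and 103 in the inputs (1.16, SE 0.24). Its corepressor Nab2 had 39.4, 32.2 and 35.8 CPM in Trim71KO IP, 33.0, 34.2 and 28.8 in untagged IP, and 14.5, 15.2 and 14.3 and 27.7, 27.0 and 25.6 in the inputs (1.03, SE 0.14). For both the IP libraries of the 2 genotypes overlapped, while each Trim71KO input was below every untagged input. The difference of ratios thus goes with a lower input at an overlapping IP level, and its cause was not tested. For Egr1 and Nab2 the Trim71KO value was not called different from tagged cells (-0.13, SE 0.24, and 0.23, SE 0.14).

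Mbnl1 (chr3:60472559-60629750 in GRCm38.p6), a splicing regulator, had the largest called difference from tagged cells in this list. Trim71KO IP held 99.5, 80.2 and 68 CPM and input 16.0, 13.7 and 14.1, untagged IP 8.65, 6.06 and 8.72 and untagged input 8.36, 8.04 and 7.79, and tagged IP 285, 286 and 330.4. Trim71KO IP therefore lay between untagged and tagged IP with no overlap on either side. Remaining association was 2.55 (SE 0.21, edgeR adjusted p 2.98e-10) and the difference from tagged cells -2.40 (SE 0.19, edgeR adjusted p 1.5e-08). Its relatives Mbnl3 (1.19) and Mbnl2 (0.65) were called higher than untagged cells too, and neither was called against tagged cells.

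Plxnb2 (chr15:89155546-89182018 in GRCm38.p6), a semaphorin receptor, was not called for remaining association. It was called higher with library size alone (0.46, edgeR adjusted p 0.0291), with only the groups compared (0.42, edgeR adjusted p 0.0340) and in 5 of 12 fits without 1 library. It stood at 213, 168 and 143 CPM in Trim71KO IP and 180.5, 168 and 182 in input, 42.5, 50.4 and 45.5 in untagged IP and 56.4, 56.9 and 61.8 in untagged input. Both fractions were higher in Trim71KO-labelled cells with no overlap, by 1.60 on the log2 scale in input (edgeR adjusted p 1.88e-09) and 1.92 in IP (edgeR adjusted p 2.44e-12). The difference of ratios was 0.32 (SE 0.17, edgeR adjusted p 0.121), beside 2.29 in tagged cells, and the direct difference was -1.97 (SE 0.17, edgeR adjusted p 4.92e-08). Experiment 2 gave 0.17 (SE 0.17, edgeR adjusted p 0.459). Hoxa5, a homeobox gene, was under the floor or close to it in every input and in untagged IP, at 0.420, 0.519 and 0.390 CPM in Trim71KO IP and 2.36, 2.38 and 2.48 in tagged IP, and no fold is given.

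**Figure D3:**
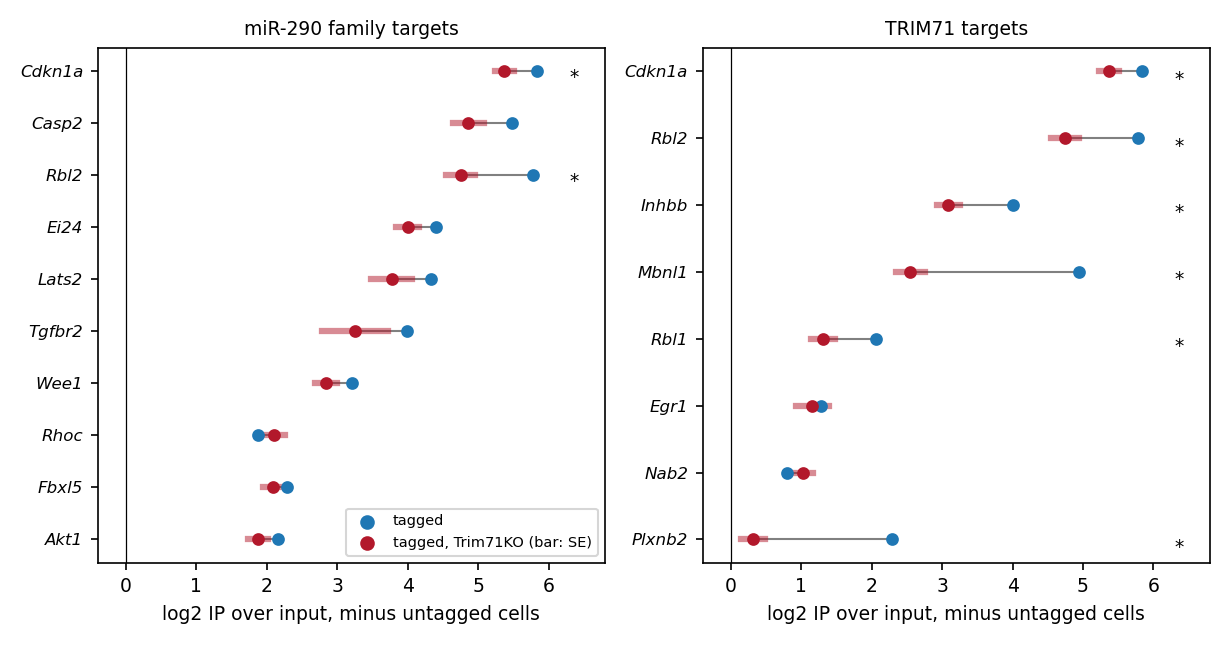
Points give IP over input (log2) minus that of untagged cells (blue, tagged cells; red, Trim71KO-labelled cells with a bar of 1 SE), for reported miR-290 family targets on the left and Trim71 targets on the right; an asterisk marks an edgeR adjusted p under 0.05 for the difference of the 2 and Dkk1 and Hoxa5, with groups at the floor, are left out. Red and blue differ most for Mbnl1 (-2.40) and Plxnb2 (-1.97), and among miR-290 targets for Rbl2 (-1.04).

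Pank3 (chr11:35769495-35791285 in GRCm38.p6), a pantothenate kinase of coenzyme A synthesis, had the largest called difference from tagged cells of all listed genes (-3.10, SE 0.17) and stayed above background. Its Trim71KO IP held 203, 179 and 143 CPM, its input 38.0, 39.1 and 35.7, untagged IP 37.4, 37.8 and 32.5 and untagged input 25.7, 21.1 and 23.6, whereas tagged IP held 1038, 1088 and 1226. Remaining association was 1.61 (SE 0.17, edgeR adjusted p 2.09e-08) against 4.71 in tagged cells. Pank1 had nearly the same remaining value (1.68, SE 0.20) with 2.02 in tagged cells. Pank2 was low at 0.31 and Pank4 was not called (0.10, SE 0.13).

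Among the silencing machinery, all 3 GW182 mRNAs and 3 of 4 Argonaute mRNAs were called higher than untagged cells. Against tagged cells 2 of the 3 and 2 of the 4 were called lower, where 3.47% of genes were. Tnrc6b had 207, 167 and 132 CPM in Trim71KO IP and 59.8, 67.0 and 66.1 in input, and 48.7, 46.7 and 47.3 against 54.5, 52.6 and 51.5 in untagged cells (1.54, SE 0.21, edgeR adjusted p 1.29e-06). Tnrc6c stood at 1.59 (SE 0.15). Both had IP levels above all their inputs, and Tnrc6b differed from tagged cells by -1.20 (SE 0.21, edgeR adjusted p 0.000678). Ago2, the Argonaute that can cleave its target, had 1583, 1302 and 1129.8 CPM in Trim71KO IP, 285, 297 and 305 in input, 246, 228 and 259 in untagged IP and 356, 346 and 371 in untagged input. Its remaining association of 2.73 (SE 0.25, edgeR adjusted p 2.51e-09) differed from tagged cells by -0.13 (SE 0.25, edgeR adjusted p 0.873). Ago1 stood at 3.13 (SE 0.20) and differed from tagged cells by -0.95 (edgeR adjusted p 0.00338). Ago3 stood at 0.53 (SE 0.21) and Ago4, which is scarce, at 0.09 (SE 0.64, not called).

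All 4 TRIM-NHL mRNAs remained, at 1.82 for Trim32, 1.60 for Trim3, 1.12 for Trim2 and 0.67 for Trim71. Trim71 mRNA itself had 365, 345 and 355 CPM in Trim71KO IP against 284, 283 and 278 in input, and 178, 171 and 183 against 215, 227 and 231 in untagged cells, while tagged IP held 968, 973 and 1110.4 CPM. Each Trim71KO IP library was above all other libraries of the comparison (SE 0.12, edgeR adjusted p 7.27e-05), and the difference from tagged cells was -1.75 (SE 0.12, edgeR adjusted p 2.02e-09).

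Of 29 genes of deadenylation, decapping and P-bodies, 15 (51.7%) were called higher and 8 (27.6%) lower, with a median of 0.37. The share called lower was near the 29.3% of all genes, of which 25.6% were called higher. The BTG/TOB genes, anti-proliferative proteins that bind CCR4-NOT, were among the highest. Tob2 reached 298, 251 and 232 CPM in Trim71KO IP from 18, 16.9 and 18.1 in input, with 13.8, 14.9 and 15.4 and 18.1, 20.7 and 16.8 in untagged cells, and no overlap on the beads (4.22, SE 0.17, edgeR adjusted p 1.47e-15). Tob1 (3.89), Btg1 (3.65), Btg2 (3.19), the deadenylases Cnot6l (3.78) and Cnot6 (3.65) and the decapping genes Dcp1b (2.91) and Dcp2 (2.21) followed. Pan2 (-0.75), the poly(A)-binding protein gene Pabpc1 (-0.65) and Lsm14a were lower. Lsm14a, of P-bodies, had 91.3, 119 and 124 CPM in Trim71KO IP against 180.5, 188 and 188 in input while untagged IP (191, 182 and 194) and input (179.7, 179 and 187) overlapped (-0.79, SE 0.13, edgeR adjusted p 2.84e-05). Of 12 genes of microRNA biogenesis 6 (50%) were higher, led by Lin28a. Another 4 (33.3%, near the 29.3% of all genes) were lower, among them Dgcr8 (-0.81) and Dis3l2 (-1.41). The 8 lower genes of the former list became 5 with library size alone, and the 4 of the latter 2 there and 2 to 3 in the 12 fits without 1 library.

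RNA-binding repressors other than the Argonaute pathway were mostly held, with 13 of 16 called higher (81.25%, beside 25.6% of all genes) and 0 lower. Their median was 1.23. Nanos1, a partner of Pumilio, had 65.3, 62.2 and 60.2 CPM in Trim71KO IP and 3.48, 4.36 and 5.22 in input, and 4.44, 6.76 and 5.30 and 6.55, 5.87 and 7.27 in untagged cells (4.08, SE 0.20, edgeR adjusted p 4.09e-14). Zfp36 (145, 129 and 126 CPM in Trim71KO IP, 10.5, 9.95 and 9.87 in input) and Zfp36l2 (634, 535 and 526 against 57.3, 60.4 and 57.4) encode proteins that bind AU-rich elements and stood at 3.57 and 3.32. For all 3 the Trim71KO and tagged values differed by less than 0.10. Celf1 (1.82) and Pum2 (1.36) were called higher with smaller values.

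Among cell-cycle brakes 8 of 14 were called higher (57.1%) and 2 lower (14.3%), beside 25.6% and 29.3% of all genes (list median 1.01). Beside Cdkn1a, Rbl2 and Wee1 these were E2f7 (2.32), Cdkn1b (1.87), Rb1 (1.47), Rbl1 and Cdkn2d (0.71). Cdkn1c (-0.65) and Pkmyt1 (-0.66) were lower, and the count of 2 became 1 with library size alone and in 10 of 12 fits without 1 library. Of 12 cyclins and their kinases 7 were higher (58.3%) and 1 lower (8.33%). Ccne2, a cyclin of the entry into S phase, was the highest, with 278, 216 and 186 CPM in Trim71KO IP, 9.29, 9.25 and 9.47 in input, 12.1, 12.3 and 9.12 in untagged IP and 10.7, 10.0 and 9.25 in untagged input (4.44, SE 0.21, edgeR adjusted p 2.26e-14). The D cyclins Ccnd3 (2.13), Ccnd1 and Ccnd2 stayed on the beads, whereas the mitotic Ccnb2 was lower (-0.76) and Ccnb1 (0.19, SE 0.13) was not called.

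In the Hippo pathway 11 of 19 were higher (57.9%) and 4 lower (21.1%), beside 25.6% and 29.3% of all genes (list median 0.78). The kinases Lats2 and Lats1 (3.42, SE 0.17) and their cofactor Mob1a (2.26) were held, while the effector Yap1 was lower (-0.98, SE 0.20). Amot, a scaffold that restrains Yap1, was the lowest at -3.02 (SE 0.54), with untagged IP at 9.76, 31.3 and 13.6 CPM above its input of 2.7, 3.28 and 3.26. Its Trim71KO IP held 1.18, 1.69 and 2.26 CPM against 2.38, 2.42 and 2.26 in input. In the TGF-beta superfamily 15 of 21 receptors and Smads were called higher (71.4%) and 1 lower (4.76%), with a median of 1.02. Of 12 ligands and their regulators 4 were higher and 4 lower (33.3% each), near the shares of all genes, and the difference from the receptors was not tested. The 4 lower became 2 without untagged input replicate 3 or untagged IP replicate 1. Among receptors and Smads, Tgfbr2 and Tgfbr1 (2.85), Smad2 (2.06) and the inhibitory Smad6 (1.84) were high. Acvr2a was lower at -0.75, a call lost in 4 of 12 fits without 1 library. Of the ligands, Inhbb, Lefty1 (2.69), Lefty2 (1.65) and the convertase gene Furin (2.09) were higher, Gdf3 (-0.77) and Bmp4 (-0.50) lower.

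FGF-ERK signalling genes had 12 of 29 higher (41.4%) and 8 lower (27.6%, near the 29.3% of all genes), with a median of 0.20. The 8 became 4 with library size alone and 4 to 7 in the 12 fits without 1 library. Fgf4, the autocrine growth factor of embryonic stem cells, had 2631, 2022 and 1683 CPM in Trim71KO IP and 228, 234 and 235 in input, and 120.1, 124 and 131 against 142, 145 and 152 in untagged cells, apart from all other libraries of the comparison (3.41, SE 0.18, edgeR adjusted p 8.33e-14). Sos1 (3.26) and Spry4 (2.91) were high, while Hras was lower (-0.85) and Nras was not called (-0.22). PI3K-Akt-mTOR genes had 13 of 24 higher and 1 lower, the Wnt pathway 11 of 24 and 2, the Bcl2 family 8 of 14 and 1, and the p53 response 11 of 15 and 1. Their medians were 0.55, 0.37, 0.48 and 1.71. The shares called higher were 54.2%, 45.8%, 57.1% and 73.3%, beside 25.6% of all genes. Those called lower were 4.17%, 8.33%, 7.14% and 6.67%, beside 29.3%. Rictor, of mTOR complex 2, stood at 2.42, and Rheb, the GTPase that activates mTOR, at -0.76. In the Wnt list, beside Dkk1 at its floor, the ubiquitin ligases Znrf3 (3.01) and Rnf43 (2.81), which remove Frizzled receptors, were high and the effector Ctnnb1 low (-0.87). In the p53 list Ei24, Btg2, Sesn2 (2.83) and Mdm4 (2.56) were high, Trp53 itself was not called (-0.09, SE 0.13) and Bax was lower (-0.52).

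Of 19 pluripotency factors 6 (31.6%) were called higher and 7 (36.8%) lower, near the 25.6% and 29.3% of all genes, with a median of 0.01. The 7 became 4 without untagged input replicate 3. Klf2 had 4892, 3905 and 3574 CPM in Trim71KO IP and 300.4, 321 and 296 in input, against 418, 442 and 389 and 255, 268 and 264 in untagged cells, so its IP groups were far apart (3.09, SE 0.18, edgeR adjusted p 7.91e-13). Klf4 (1.48), Stat3 (1.39), Tbx3 (1.13) and Sox2 (0.94) were held. Pou5f1, the core factor Oct4, was not, with 860.4, 1025 and 1117 CPM in Trim71KO IP against 1639.8, 1609.7 and 1530.2 in input and 1635, 1514 and 1587 against 1536, 1606 and 1524 in untagged cells (-0.69, SE 0.15, edgeR adjusted p 0.000444). Dppa5a (-1.28) and Dppa4 (-0.84) were lower and Nanog was not called (-0.26, SE 0.13). Of 15 primitive endoderm genes 4 (26.7%) were higher and 6 (40%) lower, beside 25.6% and 29.3% of all genes. Gata6, a regulator of that lineage, was scarce in Trim71KO input, with 0.406, 0.264 and 0.576 CPM against 9.47, 9.29 and 9.91 in untagged input, and 1.26, 1.36 and 1.01 in IP (1.52, SE 0.36, edgeR adjusted p 0.00110). Its untagged IP, at 8.58, 10.5 and 9.79 CPM, lay above its Trim71KO IP. Both fractions were thus lower in Trim71KO-labelled cells, the input by more than the IP, and the cause was not tested.

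Polycomb genes had 12 of 25 higher (48%) and 4 lower (16%), beside 25.6% and 29.3% of all genes. Values ran from Phc3 (4.20), Cbx2 (2.40) and Ezh1 (2.27) down to Ring1 (-0.79), with the catalytic Ezh2 at -0.45. The 4 lower became 2 without Trim71KO IP replicate 2. DNA methylation genes had 4 of 11 higher (36.4%, beside 25.6% of all genes) and 5 lower (45.5%). The 5 became 2 with library size alone and 1 to 4 in the 12 fits without 1 library, beside 29.3% of all genes called lower. Mbd2 (2.34), which reads methylated cytosine, and Tet3 (1.99), which oxidises it, were held, while the methyltransferases Dnmt3a (-0.33) and Dnmt3l (-0.69) were lower. The Ring1 and Tet1 (-0.70) calls were each lost in 5 of 12 fits without 1 library. Solute carriers, a list with no tie to silencing, had 89 of 255 higher (34.9%) and 45 lower (17.6%), with a median of 0.10. Of all genes 25.6% were called higher and 29.3% lower, so this list also had more higher and fewer lower calls. The 45 became 28 without both far IP libraries. Slc45a3 was the highest (3.76, SE 0.20) and Slc39a2, whose Trim71KO IP is under the floor, was at most -1.22 with the floor. Zinc finger genes Zfp900 to Zfp999 had 15 of 59 higher (25.4%, near the 25.6% of all genes) and 9 lower. Called values ran from 2.31 for Zfp937 to -0.79 for Zfp970, a call lost with library size alone and in 9 of 12 fits without 1 library. The 9 lower, a smaller share (15.3%) than the 29.3% of all genes, became 2 with library size alone and 2 to 9 in the 12 fits. Plexins and neuropilins had 1 of 10 higher (10%), Plxna1 (2.63), and 1 lower (10%), Plxna3 (-0.90), beside 25.6% and 29.3% of all genes. The Plxna3 call was lost in 4 of 12 fits without 1 library (untagged input 3, untagged IP 2, Trim71KO input 3 or Trim71KO IP 2) and without both far IP libraries, and the higher count reached 3 with library size alone.

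**Figure D4:**
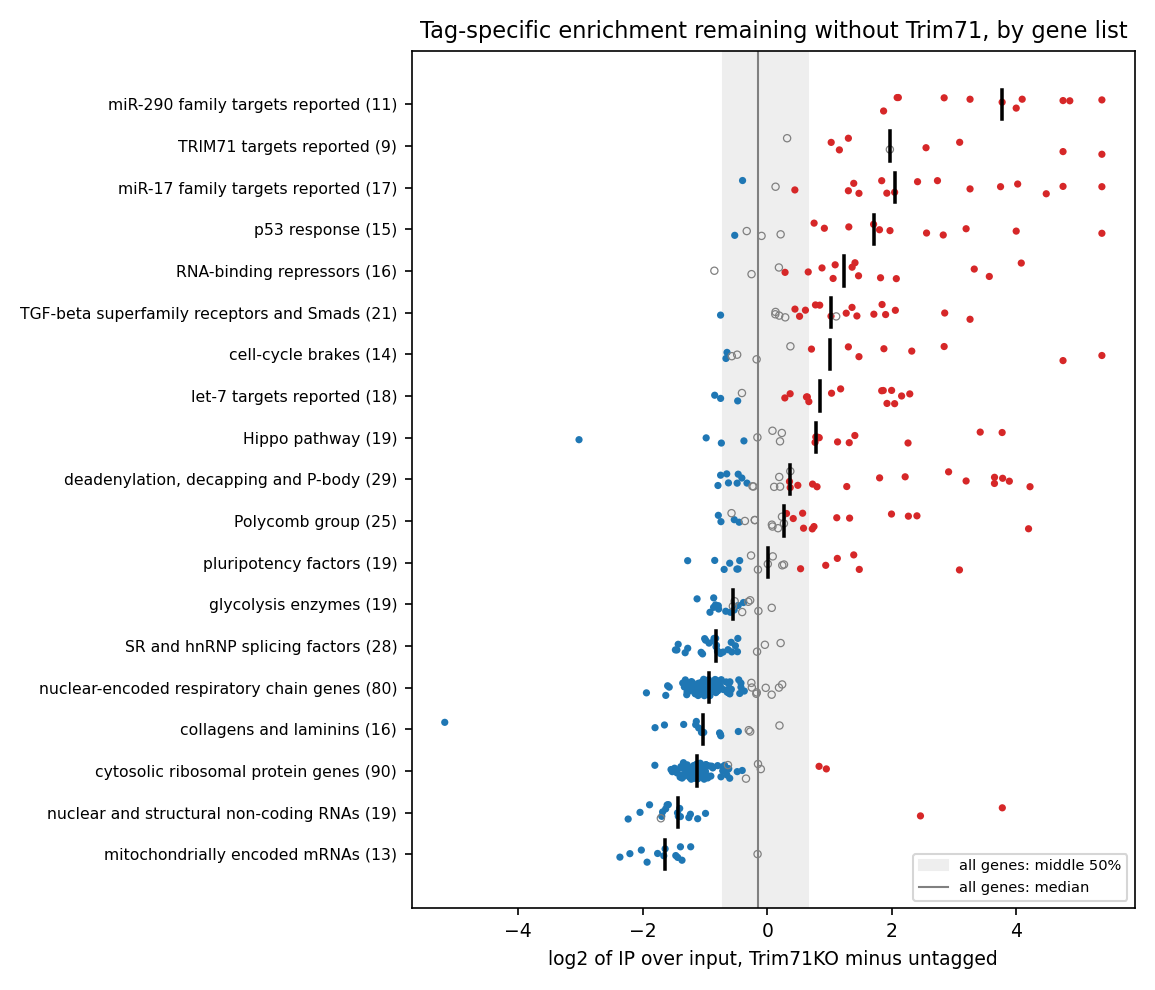
Each point is a member of a gene list (number tested in brackets), placed by IP over input (log2), Trim71KO-labelled minus untagged cells; red points were called higher, blue lower, open ones not called, black bars are list medians, and the grey band and line show the middle 50% and the median (-0.15) of all genes. Medians run from 3.77 for the miR-290 targets to -1.64 for mitochondrial mRNAs.

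Lists of housekeeping mRNAs, nuclear RNAs and mitochondrial RNAs had medians below that of all genes. Of 90 cytosolic ribosomal protein genes 84 were called lower, against 29.3% of all genes, and 2 higher (median -1.12). Rps9 was typical, with 275, 458 and 575 CPM in Trim71KO IP against 909, 925 and 917 in input, while untagged IP (979, 943 and 948) overlapped untagged input (899.8, 945 and 924; -1.12, SE 0.23, edgeR adjusted p 0.000299). Rps27 was an exception at 647, 765 and 967 CPM in Trim71KO IP against 412, 421 and 409 in input, with 413, 398 and 405 and 407, 419 and 400.3 in untagged cells (0.95, SE 0.18). Rpl7l1 (0.83) was the other, and Rpl3l, a low-level paralog, the lowest (-1.81, SE 0.67, a call lost in 6 of 12 fits without 1 library). Near-identical copies of ribosomal protein genes can share reads, so single values of this list are uncertain.

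Nuclear-encoded respiratory chain genes had 72 of 80 lower and 0 higher (median -0.94), splicing factors of the SR and hnRNP families 25 of 28 and 0 (median -0.82), collagens and laminins 13 of 16 and 0 (median -1.04) and glycolysis enzymes 12 of 19 and 0 (median -0.55). Srsf5 (-1.48), Atp5md (-1.94) and the glycolytic enolase Eno1 (-1.13) were the lowest of their lists, and Lamb1 (-1.34) was among the lowest laminins. The 13 collagens and laminins became 8 without untagged input 1, untagged IP 2, Trim71KO input 3 or Trim71KO IP 2, and experiment 2 called 2 of the 16 lower and 1 higher. The 12 glycolysis enzymes became 7 without both far IP libraries. Of 13 mitochondrially encoded mRNAs 12 were lower. COX1, a subunit of cytochrome c oxidase, had 1407, 1699 and 1608 CPM in Trim71KO IP and 6891, 6427 and 7052 in input, and 2893, 3187 and 2970.2 and 4186, 3969 and 4202 in untagged cells. Both IPs were below their inputs, and further so in Trim71KO-labelled cells (-1.66, SE 0.16, edgeR adjusted p 8.47e-09). ND2 was not called (-0.16, SE 0.24) and ND6, encoded on the other strand, was the lowest (-2.37, SE 0.25). The tagged cells gave medians of -1.18 for ribosomal protein genes and -1.38 for mitochondrial mRNAs. Among 42 replication-dependent histone genes, many of them near-identical copies, 12 were lower, H2bc8 the most (-2.35), and 1, H1f2 (1.57), was higher. The 12 are 28.6% of the list, near the 29.3% of all genes, and became 6 without untagged input 1 or without both far IP libraries.

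Nuclear and structural non-coding RNAs had 16 of 19 lower, with a median of -1.44. Malat1, an RNA of nuclear speckles, had 29.7, 40.0 and 37.1 CPM in Trim71KO IP, 93.5, 87.8 and 93.0 in input, 163, 201 and 203 in untagged IP and 123, 107 and 122 in untagged input (-2.04, SE 0.16, edgeR adjusted p 1.15e-10). Its groups did not overlap. Kcnq1ot1, an imprinted nuclear RNA, was called lower at -2.23 (SE 0.72) on few counts, with 3, 1 and 4 in Trim71KO IP and 8, 18 and 6 in untagged IP. The Kcnq1ot1 call was lost in 2 of 12 fits without 1 library and without both far IP libraries. The 2 called higher were H19, an imprinted transcript that hosts a microRNA, and Norad, a cytoplasmic RNA with many Pumilio sites. H19 rose from 3.42, 3.70 and 4.16 CPM in Trim71KO input to 40.1, 41.9 and 40.6 in IP, against 3.07, 2.96 and 3.07 and 2.74, 1.48 and 2.95 in untagged cells (3.77, SE 0.26, edgeR adjusted p 1.75e-11). Norad stood at 366, 332 and 343 against 88.1, 88.6 and 82.6 CPM, and at 61.1, 65.4 and 64.0 against 87.3, 80.4 and 93.7 in untagged cells (2.46, SE 0.13, edgeR adjusted p 1.48e-13).

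Among genes with a symbol, a mean log2 CPM of at least 2, groups above the floor and no overlap of IP over input, the 8 lowest values belonged to RNAs that the beads held without the tag. Bcar1, an adaptor of focal adhesions, made up 9.64% to 12.1% of all counts in untagged IP and 0.429% to 1.03% in Trim71KO IP. It stood at 108399, 145549 and 112894 CPM in untagged IP and 4542, 7462 and 10832 in Trim71KO IP, with 79.1, 72.4 and 68.6 and 50.3, 50.0 and 44.0 in the inputs (-3.40). Its enrichment was positive in both genotypes, and its negative value is a smaller recovery than in untagged cells. Lama4, a laminin chain, had 65.4, 87.0 and 88.1 CPM in untagged IP, 2.44, 4.80 and 6.16 in Trim71KO IP and under 2.1 CPM in each input (-5.18). Etl4 (-3.78), Rab11fip5 (-3.66), Gpr179 (-3.56), Fip1l1 (-3.50), Efs (-3.37), a relative of Bcar1, and Serf1 (-3.34) completed the 8, and all had untagged IP above untagged input. In experiment 2 none of the 8 was called, with values of -1.18 to -0.12. The rows ENSMUSG00000086418 (-3.69) and ENSMUSG00000089702 (-2.56), without a symbol, were also low in experiment 1. Of 5500 RNAs called lower, 206 had more IP than input in Trim71KO-labelled cells.

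RNAs that differed by kind and length also differed in how often they were held. In RefSeq's classes 29.9% of 13928 protein-coding genes were called higher, 17.7% of 615 lncRNAs, 5.82% of 825 pseudogenes and 0 of 82 snoRNAs, of which 59.8% were lower. Over 4 groups of equal size by deposited gene length the share called higher was 11.9% in the shortest (median 872 bases), then 21.8% and 32.1%, and 36.8% in the longest (median 8222 bases). Genes called higher had a median length of 4655.5 bases and those called lower 3041.5 bases. Over 4 groups by untagged input level the lowest had 13.9% called higher and 12.4% called lower, against 27.2% and 47.1% in the highest. The part of level in the pattern by length was not tested.

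Experiment 2 repeated the same 4 groups in libraries not shared with experiment 1, and 7647 of 19778 genes (38.7%) were called there, 4547 higher (23.0%) and 3100 lower (15.7%), which became 3654 and 4737 with library size alone. Over the 18553 genes tested in both, 3949 were called higher in both, which is 82.6% of the 4780 of experiment 1 and 87.2% of the 4527 of experiment 2. Called lower in both were 2677, or 48.9% of 5479 and 87.2% of 3069. Opposite calls were made for 12 genes, lower in experiment 1 and higher in experiment 2, and for 0 the other way. In the untagged IP of experiment 2 Bcar1 took 0.613% to 2.76% of counts, below the 9.64% to 12.1% of experiment 1. The part of that difference in the lower calls was not tested.

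RNAs defined by the Ago2KO-labelled cells of experiment 2 mostly stayed above background in the Trim71KO-labelled cells of experiment 1. Of 746 RNAs less associated in Ago2KO-labelled than in tagged cells (3.77% of genes tested there), 745 were tested in experiment 1. In Trim71KO-labelled cells 732 of them (98.3%) were called higher than untagged cells, beside 25.6% of all genes. Their median was 1.99 beside 2.24 in tagged cells. Tagged cells, which share the untagged reference, called 733 of them higher, and RNAs chosen for a loss from tagged cells start from a high share. Against tagged cells 117 of the 745 were called lower and 1 higher, where 3.47% of all genes were called lower. The 3 called lower than untagged cells were 3830408C21Rik (-2.88), Calr (-0.39) and Crebzf (-0.38), named after their values were seen. That count of 3 became 1 with library size alone and in 10 of 12 fits without 1 library. The highest were Zfp768, 9530068E07Rik and Gnb5, described above, and Zfp385a and Ficd. Zfp385a, a zinc finger gene, had 1192, 1068 and 1103 CPM in Trim71KO IP, 35.4, 41.4 and 42.4 in input, 31.9, 27.0 and 35.1 in untagged IP and 35.9, 32.7 and 32.7 in untagged input (4.93, SE 0.16, edgeR adjusted p 1.17e-16). Trim71KO IP overlapped tagged IP there (1076, 871 and 1066 CPM), and the difference of ratios was -0.10 (SE 0.15). Ficd, an enzyme that AMPylates the chaperone BiP, stood at 4.82 (SE 0.24), with -0.44 (SE 0.22) against tagged cells.

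**Figure D5:**
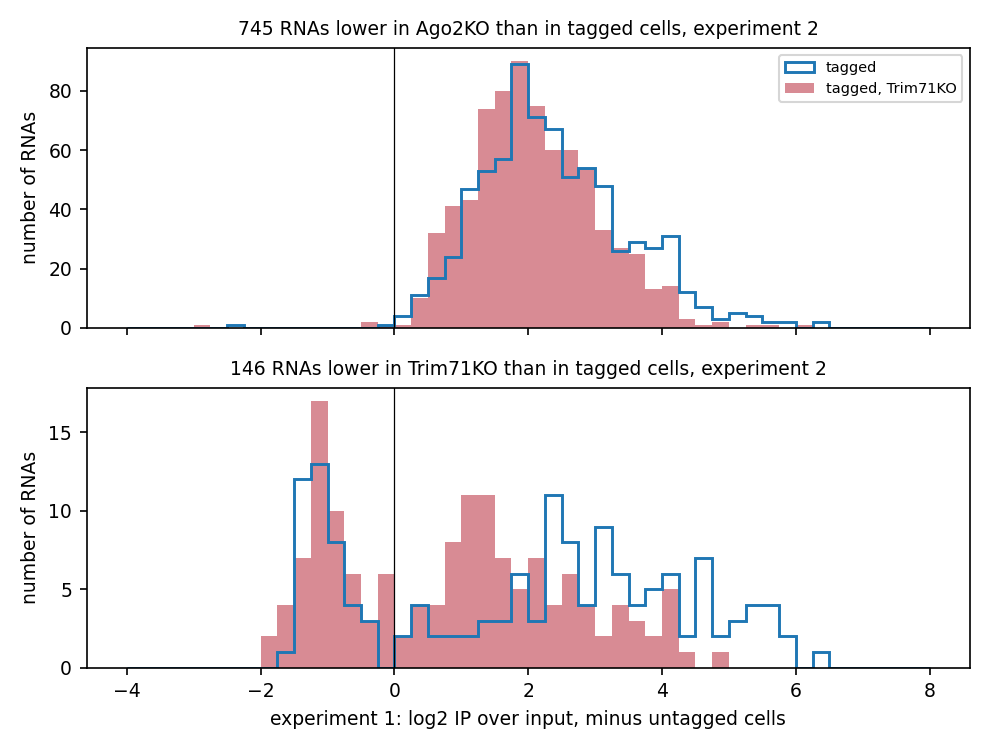
Histograms of IP over input (log2) minus untagged cells in experiment 1, for tagged cells (blue outline) and Trim71KO-labelled cells (red), over RNAs that experiment 2 called lower in Ago2KO-labelled (top, 745) or Trim71KO-labelled cells (bottom, 146) than in tagged cells. Medians for tagged and Trim71KO-labelled cells are 2.24 and 1.99 at the top. They are 2.30 and 0.97 at the bottom, where values lie on both sides of 0.

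RNAs that experiment 2 called lower in Trim71KO-labelled than in tagged cells, 146 in all (0.738% of genes), were taken to experiment 1. In Trim71KO-labelled cells 84 of them (57.5%) were called higher than untagged cells and 46 (31.5%) lower, beside 25.6% and 29.3% of all genes, with a median of 0.97 against 2.30 in tagged cells. Of the 146, tagged cells called 102 higher and 33 lower. The 42 RNAs lower in both knockouts of experiment 2 had 41 called higher, with a median of 2.15 against 3.73, and Crebzf lower, a call lost with library size alone and in 10 of 12 fits without 1 library.

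For 103 RNAs the loss relative to tagged cells was called in both experiments. They were chosen partly on experiment 1, so their values describe how much was left: 82 were still called higher than untagged cells and 7 lower, from -1.24 to 4.98 with a median of 1.50, while tagged cells had a median of 3.16. Zfp367, a cell-cycle transcription factor gene, was the highest. It held 792, 629 and 544 CPM in Trim71KO IP, 25.4, 23.9 and 24.2 in input, 17.0, 13.7 and 14.9 in untagged IP and 18.3, 18.3 and 17.3 in untagged input, against 1939, 1730.0 and 1908 in tagged IP. The Trim71KO IP lay far above background and below every tagged IP library (4.98 beside 6.37). The mediator kinase gene Cdk19 (4.48 beside 5.97), Zkscan1 (4.24 beside 5.62), Phc3 of Polycomb (4.20 beside 5.53) and Zfp180 (4.07 beside 5.48) had the same order of values.

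At the other end Tnrc6a held the RNA no more than the beads held it in untagged cells. Scai, a suppressor of cell invasion, had 12.3, 13.6 and 9.36 CPM in Trim71KO IP and 12.1, 14.4 and 15.8 in input, 16.2, 18.9 and 17.5 and 12.6, 11.6 and 12.5 in untagged cells, and 38.2, 53.7 and 58.9 in tagged IP. Its Trim71KO IP overlapped its input and lay below untagged IP, whereas tagged IP was above all of them (-0.78 beside 1.50). Hmgn2, a nucleosome-binding protein gene, had 36.0, 48.5 and 52.9 CPM in Trim71KO IP against 111, 111 and 109.7 in input, with 98.3, 102 and 102 in untagged IP and 149, 119.7 and 126 in tagged IP (-1.24 beside 0.23). Its Trim71KO IP was the lowest of all groups. Gm10282 (-0.997 beside 0.44), the peroxisomal transporter gene Abcd3 (-0.59 beside 0.07) and the mitochondrial tRNA synthetase gene Hars2 (-0.54 beside 0.49) were the other 3. In experiment 2 remaining association was -0.01 (SE 0.15) for Scai, -0.13 (SE 0.10) for Abcd3 and -0.14 (SE 0.11) for Hars2, none called, and -0.56 and -0.58 for Gm10282 and Hmgn2, both called lower.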

How the data were processed

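RIP-seq input and IP RNA of mouse embryonic stem cells was deposited as 1 table per experiment. It holds raw read counts per gene and RPKM values, which the authors scaled by depth and gene length, per the file headers; the length column is named for QuasR. The submitters' processing notes list bcl2fastq 2.20, STAR 2.7.3a and GRCm38. The counting tool, annotation and strand setting are not given in the sources used here, so overlapping and antisense genes may share reads. The deposited counts were tested and the RPKM values were not used. Mature microRNA sequences and gene coordinates are from RefSeq (GRCm38.p6), to which 15597 of 18772 genes tested matched.

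All 18 libraries of experiment 1 (6 groups) entered 1 fit, and the 24 of experiment 2 (8 groups) another, with edgeR 4.0.16 in R 4.3.3 (limma 3.58.1): default expression filter, TMM factors, quasi-likelihood test, Benjamini-Hochberg adjustment over all genes, and a gene is called at an adjusted p under 0.05. SE is the absolute log2 difference over the square root of the F statistic. A library has a floor of 3 counts. Depth limits genes with few counts, and counting error alone does not cover the spread between dishes. Of the experiment 1 rows 3194 had no symbol and 61 shared one. Where Lats2 names 2 rows the one with more counts was used. CPM divides by effective library size, the count total times the TMM factor. With library size alone a few abundant RNAs on the beads (Bcar1, Tnrc6a) can lower all others. TMM factors, 0.831 to 0.890 in untagged IP, are meant to correct for this, and how fully they do was not tested. The experiment 1 test of remaining association was tried on simulated counts with few changed genes, balanced in direction. Experiment 2, the other comparisons and changes in as many genes as were called here were not simulated.

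Named genes are Tnrc6a, Trim71 and Ago2; the 12 higher and 8 lower symbols with the largest called difference at a mean log2 CPM of at least 2, above the floor and with all 9 IP minus input differences of Trim71KO beyond all 9 of untagged cells; all reported Trim71 and miR-290 targets; the called extremes of each other list; the 5 highest and 5 lowest of the genes called lower than tagged cells in both experiments; and the 5 highest of those lower in Ago2KO in experiment 2. Other list members are examples chosen after their values were seen. A few list members are not reported here. The members and lists were chosen with earlier results of these data known, and the target lists come from general knowledge. Deviations of same-numbered libraries correlated at -0.20 to 0.11, so numbers were not taken as pairs. Alternatives were RLE and library-size scaling, no filter, a 2-fold minimum, a replicate block, only the groups compared, DESeq2 1.42.0 and leaving out each library; leaving out Trim71KO IP replicate 1 and untagged IP replicate 2 together was chosen after seeing the data.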

Additional observations from a re-analysis of the deposited data

Results flagged for a closer look

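In 30 named genes the IP to input difference of Trim71KO-labelled cells was called different from that of tagged cells by the test of the difference itself (edgeR adjusted p under 0.05), and all 30 were lower. Pank3 and Tnrc6b, described above but outside the rules for named genes, were called lower as well. Pank3 differed by more than any of the 30. The log2 differences of the 30, Trim71KO minus tagged, were as follows. Among reported Trim71 targets and families they were -2.40 for Mbnl1, -1.97 for Plxnb2, -1.75 for Trim71, -1.04 for Rbl2, -0.92 for Inhbb, -0.76 for Rbl1 and -0.47 for Cdkn1a. The GW182, Argonaute and TRIM-NHL genes Tnrc6a, Ago1 and Trim32 had -0.86, -0.95 and -0.80. In the pathway lists Tob2 had -0.88, Rictor -0.83 and Ccne2 -0.77.

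Among the leading RNAs Zbtb7a had -1.22 and Plagl2 -0.74. RNAs that were high on the beads without the tag were called as well, Lama4 with -2.37, Rab11fip5 with -1.52, Bcar1 with -1.39, Efs with -1.28 and Etl4 with -1.24. The genes called lower in both experiments were chosen by this same measure, so their values are a description: -2.28 for Scai, -1.48 for Cdk19, -1.47 for Hmgn2, -1.44 for Gm10282, -1.42 for Zfp180, -1.39 for Zfp367, -1.39 for Zkscan1, -1.34 for Phc3, -1.03 for Hars2 and -0.66 for Abcd3. Of the 30 calls 22 held under every setting run. The 8 that were lost under at least 1 were Tnrc6a, Cdkn1a, Plagl2, Rab11fip5, Efs, Rbl1, Ccne2 and Rictor.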

How the results depend on the processing

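Counts of called genes are given as all, higher and lower. Of 101 named genes called for remaining association 90 kept their call under every setting run, 11 lost it in at least 1 and 0 reversed. With each of 12 libraries left out in turn, remaining association had 9026 to 10180 calls, 4966 to 5496 higher and 4060 to 4684 lower, and without both far IP libraries 8543. Requiring 2-fold gave 5140, 3137 and 2003. The IP level had 11678 to 12450 calls without 1 library, 6265 to 6670 higher and 5411 to 5780 lower. The RNA level had 2514 to 2886, 1524 to 1751 and 982 to 1135. With only the groups compared it had 7234, 3794 and 3440. That fit takes the spread from input libraries alone, whereas the main fit shares it with IP libraries, and the cause of the change was not tested. Experiment 2 had 6968 to 7566, 4135 to 4467 and 2713 to 3283, and 4737 lower with library size alone.

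The difference from tagged cells moved most. Its 703, 51 and 652 calls became 133 higher and 408 lower with library size alone, 8 higher with only the groups compared and 216 higher with DESeq2. Without 1 library they ranged over 339 to 1435, 21 to 588 and 299 to 847. The total moved by over 1.5 times without Trim71KO IP replicate 1 (1435) or 2 (345), Trim71KO input 1 (435), 2 (383) or 3 (339), tagged input 3 (362) or tagged IP 3 (467); the cause was not tested. Counts lower than tagged cells were 400 without tagged input 2 and 379 without Trim71KO IP 3. Counts higher were 245 and 104 without tagged input 1 and 2, 32 and 78 without tagged IP 1 and 2, and 147 without Trim71KO IP 3. With the replicate number as a block the counts were 10227 for remaining association (9921 with a block within genotype), 682 against tagged cells, 3863 for RNA, 12883 for IP and 7936 in experiment 2, and no count moved by over 1.5 times. The medians of the Nodal ligand, primitive endoderm and Zfp900 to Zfp999 lists changed sign under some settings, and all other list medians kept it. Precision is limited by 3 libraries a group and by few counts in rows such as Dkk1, Hoxa5 and Mir294.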
